A study of Mus musculus with 12 samples.

Results

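Genes of the sperm tail were followed through mouse sperm formation in 4 isolated germ cell types. The members were 10 genes chosen by name: Akap3, Akap4, Ropn1, Ropn1l, Odf1, Odf2, Smcp, Catsper2, Tekt1 and Tekt2. Every probe set (a group of short probes for 1 transcript) that the platform annotation names for 1 of them was taken, on any of 3 Affymetrix array designs, U74Av2, U74Bv2 and U74Cv2. The annotation gave 16 such probe sets for 9 of the 10 members, out of 15964 genes with a probe set of a single symbol. Akap3 has no probe set under its symbol, so its signal was not analysed here and only its promoter sequence is described. The cell types were, in developmental order, spermatogonia of type A and of type B (the dividing cells before meiosis), spermatocytes at the pachytene stage of meiosis, and the haploid round spermatids. The labels name no strain, age, genotype, treatment or isolation method for any of them. Each cell type was hybridised to 1 array per design, 12 arrays in all, and the labels describe each as a singlet, so the spread between preparations is unknown and no difference could be tested.

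The sperm tail is built around a microtubule axoneme. Tektins are filament proteins of the axonemal doublet microtubules. Outer dense fibres run along the axoneme through the midpiece and most of the principal piece. Mitochondria wrap the fibres in the midpiece, and the fibrous sheath encloses them in the principal piece, where the sheath also anchors protein kinase A and glycolytic enzymes and the membrane carries the CatSper calcium channel. Sperm tail mRNAs are known to appear in meiosis or after it, and some are stored before translation in elongating spermatids.

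A signal is the authors' intensity on a linear scale, 1 value per probe set and array. Signals at or under a floor of 50.01 to 50.03 units were treated as not told from background, and where the lower of the compared signals was set to the floor the ratio is a bound, written "at least". The 228 readings of bacterial and yeast negative controls, 19 per array, exceeded the floor 22 times and reached 103.5 on a U74Cv2 array, but on the U74Av2 arrays, which carry the main probe sets of 7 members, none exceeded 32.7. A gene with several probe sets is represented by the brightest on average, called its main probe set. Array medians lay between 42.7 and 75.9 units, and between 45.8% and 61.1% of probe sets without controls exceeded the floor on an array. Among 13 listed spermatocyte marker genes with a probe set, 9 exceeded the floor in type A, 8 in type B, 11 in pachytene and 10 in round spermatids. These counts differ little, whereas the summed signal was 4118, 3524, 29119 and 23953 in the same order. In pachytene Sycp3, of the synaptonemal complex, read only 60.4 units and the recombinase gene Dmc1 17.9. Among 10 spermatogonial markers all exceeded the floor in both spermatogonial types, 6 in pachytene and 8 in round spermatids. Sertoli cell markers were not absent: 11 of 13 exceeded the floor in pachytene spermatocytes and 5 of 13 in round spermatids, and their summed signal was 7410 in type A, 5594 in type B, 3387 in pachytene and 1265 in round spermatids. Myoid and fibroblast markers gave a larger sum in spermatogonia, 7725 in type A and 15659 in type B, against 680 in pachytene and 774 in round spermatids. Ciliated epithelium can also express tektin genes. Of 7 markers of that epithelium 5, 4, 5 and 6 exceeded the floor in the same order of cell types. Their summed signal was 696, 888, 2309 and 5474.5. Foxj1, 1 of these markers, is also in the list of spermatocyte and spermatid transcription factors below, so the list is not particular to that epithelium. The part of such cells in the members' signals was not tested.

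The 9 measured members were low in spermatogonia and high in round spermatids. Each main probe set lay under 2 floors (about 100 units) in both spermatogonial types, and each exceeded the floor in pachytene spermatocytes and in round spermatids. The members differed in when the signal came. In the early group, Ropn1l, Catsper2, Odf2 and Tekt1, the pachytene signal was already between 37.5% and 104% of the round spermatid signal, with a median of 57.4%. In the late group, Akap4, Ropn1, Odf1, Smcp and Tekt2, it was between 2.97% and 12.8%, with a median of 5.22%. Onset was set as the first cell type with at least 2 floors. A gene was called late if its onset fell in round spermatids or its round spermatid signal was at least 4-fold over pachytene, and early otherwise. The 4-fold limit lay between Tekt2, with a ratio of 7.81, and Odf2, with 2.67. The low percentages of the late group therefore follow from how it was chosen. Of the 9 members, 8 had their onset in pachytene spermatocytes, 4 early and 4 late, and Akap4 had its onset in round spermatids. Among the 911 genes of the series with onset in pachytene, 12.1% were at least 4-fold higher in round spermatids than in pachytene. Taking in onset in round spermatids as well, 1336 genes were under 2 floors in both spermatogonial types and reached them later, and of these 40% were late and 60% early, whereas 5 of the 9 members were late and 4 early. Of all 10702 genes with an onset, most of which were already over 2 floors in spermatogonia, 6.86% were late and 93.1% early.

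**Figure D1:**
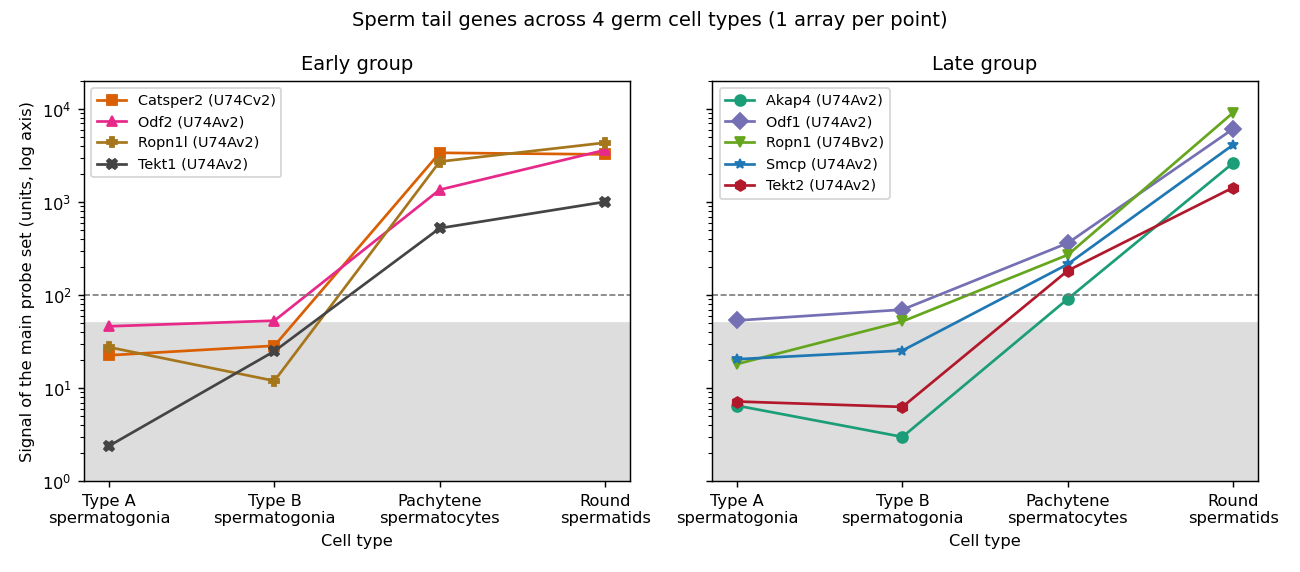
Signal of the main probe set of each measured member in the 4 cell types, 1 array per point, on a log axis of signal units, with the early group on the left and the late group on the right. Grey marks signals under the floor, and the dashed line marks 2 floors. The early members stand at 524 to 3386 units in pachytene, whereas the late members stand at 91.2 to 363.1 units there and at 1434 to 9143 in round spermatids.

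Between the spermatogonial types, 3 members had a main probe set over the floor, and in none did type B differ from type A by 4-fold. Of the 11951 genes over the floor in either type, 0.167% were higher and 0.176% lower in type B by that measure. In pachytene spermatocytes 7 of 9 members were at least 4-fold higher than in type B spermatogonia, against 7.9% of 12281 genes. No member was lower by that measure, against 5.44% of genes. The members' median log2 ratio was 2.38, with bounded ratios at their bound, and that of all these genes was -0.28. Among markers of somatic cells measured at this step, 9 of 12 myoid and fibroblast genes, 1 of 8 macrophage and leukocyte genes, 1 of 12 Sertoli genes and 0 of 7 Leydig genes were at least 4-fold lower in pachytene, and their part in the members' ratios was not tested. The remaining pair, Akap4 and Tekt2, are known only as at least 1.82-fold and at least 3.67-fold higher. In round spermatids 5 of 9 members were at least 4-fold higher than in pachytene spermatocytes, against 4.45% of 11203 genes, and no member was at least 4-fold lower, against 2.28%. The members' median log2 ratio at this step was 2.97, and that of all genes was -0.06. The members' median was 0.81 where the second probe set stood in for the main one in the 4 members that have several. Ropn1 dropped out of that median, because its second probe set was under the floor in both cell types.

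Among the proteins of the fibrous sheath, the A-kinase anchoring protein gene Akap4 encodes the main structural protein of the sheath and is X-linked. Its probe set, 102857_at, read 6.5 in type A, 3.0 in type B, 91.2 in pachytene and 2631 in round spermatids. The spermatogonial signals lay far under the floor. In pachytene spermatocytes the signal was over the floor but under 2 floors, which made Akap4 the only measured member with its onset in round spermatids. The highest negative control on that pachytene array read 12.9. Round spermatids were 28.8-fold over pachytene spermatocytes.

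Ropporin genes encode small proteins that bind A-kinase anchoring proteins in the fibrous sheath, through a domain like that of the regulatory subunit of protein kinase A. Ropn1 (162587_at) read 18.2 in type A, 52.2 in type B, 271.2 in pachytene and 9143 in round spermatids. It was 5.19-fold higher in pachytene than in type B, from a type B signal just over the floor but lower than the brightest negative control on that array (62.4), and 33.7-fold higher in round spermatids than in pachytene, the largest ratio among the members at that step. Its relative Ropn1l, whose protein is also found in the radial spokes of the axoneme (160506_at), read 27.6, 12, 2725 and 4349 in the same order. Ropn1l was at least 54.5-fold higher in pachytene than in type B and 1.60-fold higher in round spermatids than in pachytene. The ropporin pair was thus divided between the late and the early group.

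The outer dense fibre genes were divided in the same way. Odf1 encodes a cysteine-rich main protein of the fibres, and its main probe set, 101968_at, read 53.5 in type A, 69.9 in type B, 363.1 in pachytene and 6118 in round spermatids. Among the members' main probe sets it was the only one over the floor in type A spermatogonia. The pachytene signal was 5.19-fold over type B and the round spermatid signal 16.9-fold over pachytene. Odf2 encodes a coiled-coil protein of the fibres that, in other cells, is also a part of centrioles. Its main probe set, 100626_at, read 46.3, 53.2, 1359 and 3628 in the 4 cell types. Odf2 was 25.5-fold higher in pachytene than in type B and 2.67-fold higher in round spermatids than in pachytene, the largest late increase within the early group.

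Smcp (100891_at), the sperm mitochondria-associated cysteine-rich protein gene of the midpiece sheath, followed the late group with 20.5 in type A, 25.4 in type B, 215.4 in pachytene and 4130 in round spermatids. Pachytene spermatocytes were at least 4.31-fold over type B, and round spermatids 19.2-fold over pachytene. Catsper2 (167660_at), a pore subunit of the CatSper channel, had the flattest profile after meiotic entry, with 22.6, 28.6, 3386 and 3255 in the 4 cell types. It was at least 67.7-fold higher in pachytene than in type B. Round spermatids were 1.04-fold lower than pachytene, a difference of -0.06 on the log2 scale. The technical SD of a log2 ratio at this step, taken from 29 control probe sets present on all 3 designs, was 0.44, and so exceeded the Catsper2 difference. No spread between cell preparations was measured.

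The tektin genes were also divided. Tekt1 (99545_at) read 2.4 in type A, 25.0 in type B, 524.3 in pachytene and 1008 in round spermatids. It was at least 10.5-fold higher in pachytene than in type B and 1.92-fold higher in round spermatids than in pachytene. Tekt2, whose product is needed for flagellar bending in mice (103684_at), read 7.2, 6.3, 183.6 and 1434. Round spermatids were 7.81-fold over pachytene, the lowest ratio in the late group.

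Ordered by the ratio of round spermatids over pachytene spermatocytes, the members ran Ropn1, Akap4, Smcp, Odf1, Tekt2, Odf2, Tekt1, Ropn1l, Catsper2. The technical SD of a gap between 2 such log2 ratios would be 0.62 if the errors of 2 members were independent. It comes from control ratios compared between designs, so it includes array-wide shifts, which cancel between 2 members of the same design. Among the 8 gaps between neighbours, 3 exceeded 0.62: 1.11 between Odf1 and Tekt2, 1.55 between Tekt2 and Odf2, and 0.73 between Ropn1l and Catsper2. The order among Ropn1, Akap4, Smcp and Odf1, and among Odf2, Tekt1 and Ropn1l, therefore rests on gaps within that spread.

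**Figure D2:**
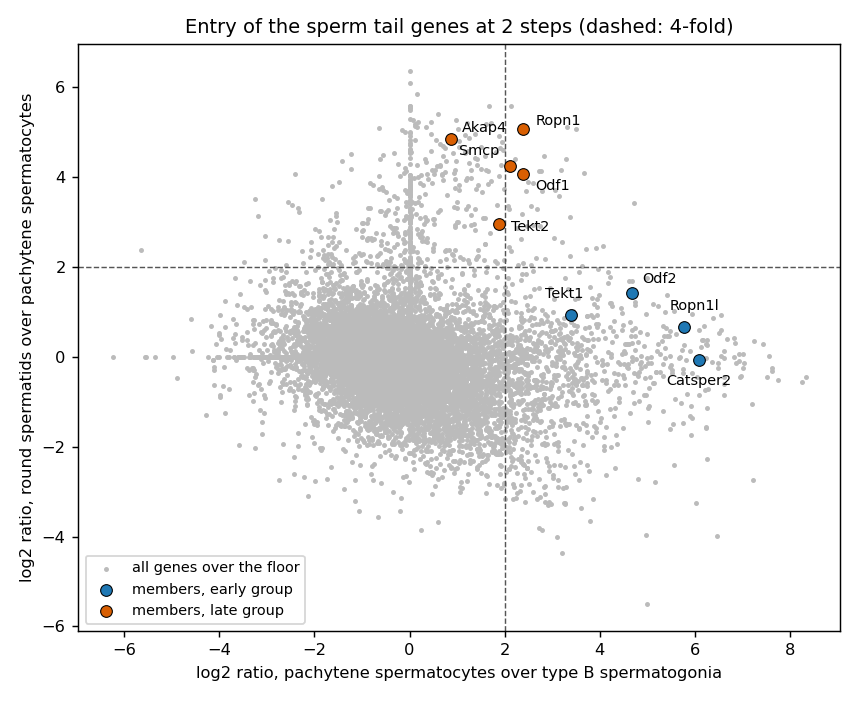
Each point is a gene, placed by its log2 ratio of pachytene spermatocytes over type B spermatogonia on the horizontal axis and of round spermatids over pachytene spermatocytes on the vertical axis, with the 9 measured members in colour and dashed lines at 4-fold. The 4 early members lie right of the vertical line and under the horizontal one, and the 5 late members lie over the horizontal line with smaller ratios at the first step; ratios against the floor are drawn at their bound.

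Markers of later germ cells were also read on the pachytene arrays. Of 9 markers of condensing spermatids with a probe set, 7 exceeded the floor on the pachytene arrays, 2 on the type B and 1 on the type A arrays. The summed signal of the list was 279 in type A, 361 in type B, 3394 in pachytene and 49062 in round spermatids. In the 8 markers over 2 floors in round spermatids, the pachytene signal was between 0.403% and 13.5% of the round spermatid signal, with a median of 5.39%. Prm1, the protamine 1 gene, read 1321 in pachytene, 9.23% of its round spermatid signal, whereas the linker histone gene H1f7 read 6.4, or 0.403%. Spermatocyte markers over 2 floors in round spermatids had a median of 128%. The 10 markers of round spermatids over 2 floors there spread more widely, from 2.65% to 202%, with a median of 23.4%. Whether RNA of later germ cells enters the pachytene signals of Akap4, Ropn1, Odf1, Smcp and Tekt2 was not tested, and with bulk RNA, fewer cells of a type and less RNA per cell cannot be told apart.

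**Figure D3:**
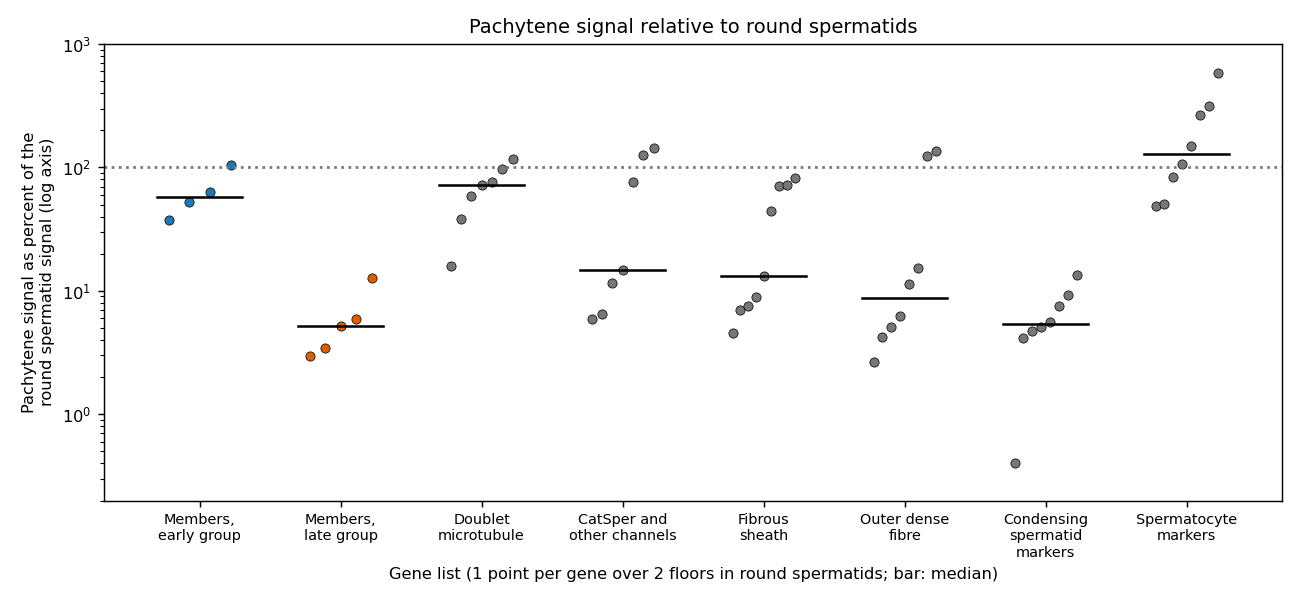
Pachytene signal as a percentage of the round spermatid signal, on a log axis, for the early members, the late members and 6 other gene lists, with 1 point per gene over 2 floors in round spermatids and a bar at the median. The early members lie between 37.5% and 104% and the late members, which were chosen by this ratio, between 2.97% and 12.8%. The median of condensing spermatid markers is 5.39%, and the list of round spermatid markers is not drawn.

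A total of 4 members had more than 1 probe set, and only Odf1 had a further probe set with a profile like its main one. That second probe set of Odf1, 167642_f_at on U74Cv2, read 72.2, 67.5, 254.0 and 3183 in the 4 cell types, 12.5-fold higher in round spermatids than in pachytene. Another, 140509_at on U74Cv2, read 49.6, 113.3, 72.9 and 89.6, with round spermatids 1.23-fold over pachytene. The second of Odf2, 160970_at, read 104.7, 41.4, 166.9 and 169.3, with pachytene at least 3.34-fold over type B. The other Odf2 probe sets stayed low, 167956_at at 8.1, 7.2, 96.1 and 72.3 and 161262_r_at at no more than 5.3 in any cell type. For Ropn1, 168358_i_at on U74Cv2 read 11.6, 77.3, 11.1 and 4.3, and for Tekt2, 168742_at on U74Cv2 read 36.8, 86.0, 93.0 and 87.7. Each of these Ropn1 readings was lower than the brightest negative control on the same array, whereas the Tekt2 readings exceeded it in pachytene (61.2) and round spermatids (59.0) but not in type B (103.5). By the same rule 160970_at was early like the main probe set of Odf2, but with its onset in type A. The early or late call thus rests on a single probe set in every measured member but Odf1 and Odf2. Over the whole series, 4906 pairs of probe sets shared a gene and exceeded the floor in both pachytene and round spermatids. Of these pairs, 27.7% differed by more than 2-fold in their ratio of round spermatids over pachytene, and 7.2% by more than 4-fold.

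**Figure D4:**
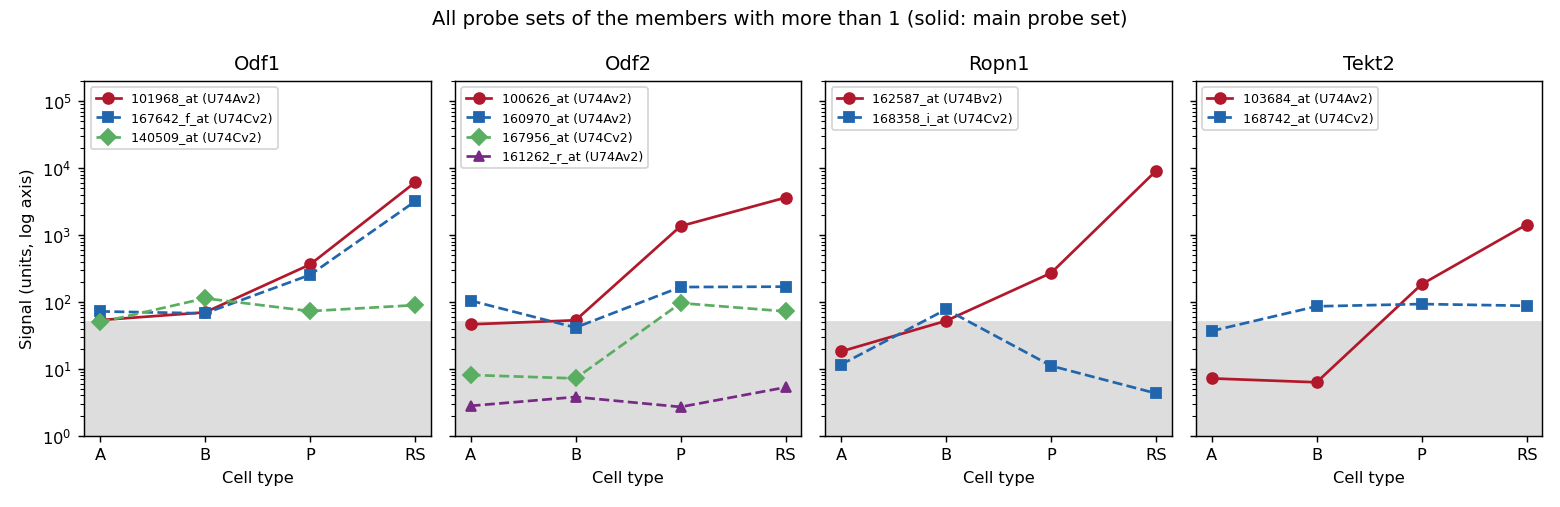
Signal of every probe set of the 4 members that have more than 1, on a log axis of signal units, in type A (A) and type B (B) spermatogonia, pachytene spermatocytes (P) and round spermatids (RS), with the main probe set as a solid line and the floor in grey. Both bright probe sets of Odf1 stand at 6118 and 3183 units in round spermatids, while the weaker probe sets of Ropn1 and Tekt2 stay under 100 units throughout.

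The promoters of the divided relatives are shown because Ropn1l with Ropn1 and Tekt1 with Tekt2 compare an early with a late gene of one family, and that of Akap4 because its onset was the latest. Each is the RefSeq window of assembly GRCm38.p6 from 250 bases before to 50 bases after an annotated start site, 5′ to 3′ on the gene's strand. Capitals mark GTTGCC, an arm of the X-box bound by RFX factors, TGACG, the core of the cyclic AMP response element (CRE), and TGATGTCA, a CRE variant that was added after the sequences were seen, each on either strand.
Ropn1l, early, chr15:31453640-31453939, minus strand: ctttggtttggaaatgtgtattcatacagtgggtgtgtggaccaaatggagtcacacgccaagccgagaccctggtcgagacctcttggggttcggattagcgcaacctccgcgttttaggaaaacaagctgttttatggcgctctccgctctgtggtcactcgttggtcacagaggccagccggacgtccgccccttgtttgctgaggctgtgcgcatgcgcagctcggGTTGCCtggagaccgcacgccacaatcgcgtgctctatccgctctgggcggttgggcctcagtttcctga
Ropn1, late, chr16:34650961-34651260, plus strand: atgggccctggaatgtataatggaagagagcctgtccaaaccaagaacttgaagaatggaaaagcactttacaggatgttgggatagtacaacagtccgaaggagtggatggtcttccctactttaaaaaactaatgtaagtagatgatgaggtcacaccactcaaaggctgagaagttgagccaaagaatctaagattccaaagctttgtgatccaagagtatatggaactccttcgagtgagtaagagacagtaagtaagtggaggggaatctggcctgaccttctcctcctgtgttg
Tekt1, early, chr11:72361833-72362132, minus strand: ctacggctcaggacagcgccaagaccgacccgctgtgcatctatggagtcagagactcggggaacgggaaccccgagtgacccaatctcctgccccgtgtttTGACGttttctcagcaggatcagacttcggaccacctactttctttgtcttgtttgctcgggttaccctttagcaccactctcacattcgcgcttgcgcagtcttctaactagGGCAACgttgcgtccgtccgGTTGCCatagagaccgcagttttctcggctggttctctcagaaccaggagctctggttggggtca
Tekt2, late, chr4:126325639-126325938, minus strand: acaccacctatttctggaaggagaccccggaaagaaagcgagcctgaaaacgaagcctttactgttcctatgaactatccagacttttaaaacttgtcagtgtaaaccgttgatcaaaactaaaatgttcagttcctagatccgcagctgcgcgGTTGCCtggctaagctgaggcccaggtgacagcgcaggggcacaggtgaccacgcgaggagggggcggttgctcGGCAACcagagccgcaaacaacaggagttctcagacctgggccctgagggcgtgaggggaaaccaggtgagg
Akap4, late, chrX:7067265-7067564, plus strand: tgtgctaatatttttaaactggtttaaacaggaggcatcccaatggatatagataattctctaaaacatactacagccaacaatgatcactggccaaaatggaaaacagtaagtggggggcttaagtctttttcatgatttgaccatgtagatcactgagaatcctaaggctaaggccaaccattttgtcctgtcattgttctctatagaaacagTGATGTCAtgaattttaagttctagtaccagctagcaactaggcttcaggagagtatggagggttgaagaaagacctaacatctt

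The table held 16 windows for 9 of the 10 members, 8 of them measured, 4 early and 4 late. Tekt1 and Akap4 have 2 windows and Tekt2 has 3, and 1 of each is shown. A gene was counted if any of its windows held the letters, and all 27025 genes had 32851 windows. Positions are those of the leftmost base of a match as printed, relative to the start site. GTTGCC stood at -20 in Ropn1l, at -15 and, reversed, at -35 in this Tekt1 window, and at -96 and, reversed, at -22 in this Tekt2 window, and Ropn1 held none. The other Tekt1 window and 1 of the other Tekt2 windows also held none. By gene GTTGCC was in 2 of the 4 early and 1 of the 4 late members, and in 14.1% of the 27025 genes with a window. TGACG was in 3 early members, Catsper2, Odf2 and Tekt1, in no late member and in 23% of genes. The full CRE, TGACGTCA, and the TATA box letters TATAAA were in no measured member, against 2.03% and 15.7% of genes. The MYB motif TAACNG was in 2 early members and 1 late member and in 25.9% of genes, and the GC box GGGCGG was in 3 early members and 1 late member and in 38.2%. TGATGTCA stood at -35 in the window shown for Akap4, but not in its other window, and downstream of the start at 25 in Smcp. This variant, added after these sequences were seen, was in no early member and in 4.18% of genes. Its count in the members therefore cannot be weighed against that share. Akap3 held TGATGTCA at -22 and again at -1. With 4 genes a group these are descriptions of letters in a window.

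The members' promoters differed in base composition. Windows of Catsper2, Odf2 and Ropn1l were between 58.0% and 74.7% G or C with 22 to 43 CG dinucleotides each, whereas those of Akap4, Ropn1 and Smcp were between 38.0% and 47.0% with 0 to 2. The tektin genes overlapped both ranges of G or C. The 2 windows of Tekt1, an early gene, were at 46.7% and 56.0%, and the 3 of Tekt2, a late gene, at 54.7% to 61.3%. With the tektins included, the ranges of the early and the late group thus overlap. The comparison was not planned, and Odf1, a late member, had no window. The median over all 32851 windows was 52.7% with 7 CG dinucleotides.

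The genes with profiles most like each member were sought on the same design, among 2056 to 2886 non-member genes of at least 4 floors in 1 cell type. The measure was the root mean square (RMS) difference of log2 signals over the 4 cell types, each profile relative to its highest signal. Signals under the floor were first raised to it. For genes at the floor in spermatogonia the measure therefore also compares the height of the peak over the floor, and so brightness as well as timing. Akap4 lay nearest to the testis-specific kinase gene Tssk2 (0.14), the protamine gene Prm3 (0.15) and the spermatid linker histone gene Hils1 (0.23). Smcp lay nearest to Oaz3, the testis antizyme gene (0.12), Gsg1 (0.18) and Zp3r, an acrosomal protein gene (0.24). Odf1 lay nearest to Gsg1 (0.22), to Gapdhs, the sperm glyceraldehyde phosphate dehydrogenase gene (0.35), and to Oaz3 (0.36), and among the members to Smcp (0.26). Ropn1, the brightest member in round spermatids, lay further from its nearest genes on U74Bv2, Spz1 at 0.40, Tsga8 at 0.68 and Irgc1 at 0.73. Tekt2 lay nearest to Tulp2 (0.18), Hspa1l (0.24) and H2bc22 (0.33).

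In the early group, Ropn1l and Odf2 shared 2 of their 3 nearest genes, the chaperone gene Dnajb3 and the poly(A)-binding protein gene Pabpc2. For Ropn1l these lay at 0.19 and 0.21, followed by Adam5 at 0.23. For Odf2 the nearest was Spa17, another A-kinase anchor binding protein of the fibrous sheath, at 0.23, followed by Dnajb3 at 0.34 and Pabpc2 at 0.47. Tekt1 lay nearest to Ubxn11 (0.07), Adad1 (0.07) and Znhit2 (0.14), and Catsper2 to 1700030C12Rik (0.14), Ccdc65, a component of the axonemal dynein regulatory complex (0.16), and Cmtm2b (0.18).

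Other genes of the same structures included both profiles, but several were already over 2 floors in spermatogonia. No member was by its main probe set, and these genes are counted apart. Of 10 further fibrous sheath genes and ligands with a probe set, 5 were late, 3 were early with onset in pachytene, and 2, Cabyr and Gstm5, had their onset in spermatogonia. Spa17 was 34.8-fold and Ldhc, the germ cell lactate dehydrogenase gene, at least 174-fold higher in pachytene than in type B. Aldoart2, an aldolase gene, was 14.2-fold and Gapdhs 13.2-fold higher in round spermatids than in pachytene. Of 11 further genes of the outer dense fibres and connecting piece, none was early with onset in pachytene. Their onset was in spermatogonia in 5, in pachytene in 3 and in round spermatids in 2, and 1 never reached 2 floors. Of those with onset in spermatogonia, 4 were early. Among these Spag5 was 7.53-fold and Cntln at least 8.27-fold higher in pachytene than in type B, whereas Hook1 and Spatc1 were not 4-fold higher. The 5 with onset after the spermatogonia were all late, among them Sun5, of the head to tail junction, 37.7-fold, Tssk2 23.7-fold and Oaz3 19.5-fold higher in round spermatids than in pachytene.

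Both profiles were present among genes of the CatSper complex. The list of CatSper and other flagellar channel genes held 11 with a probe set, and 6 of them are Efcab9 or carry the CatSper name, a group taken from the list after its values were seen. Of these 6, 3 were early and 2 late, all with onset in pachytene, and Catsperb was under the floor throughout. The auxiliary subunit genes Catsperz and Catsperd were at least 102-fold and at least 36.2-fold higher in pachytene than in type B, and round spermatids were 1.31-fold higher than pachytene for Catsperz and 1.26-fold lower for Catsperd. The pore subunit gene Catsper1 and Efcab9, whose product binds Catsperz in the channel, were 15.4-fold and 17.0-fold higher in round spermatids than in pachytene. Of the 5 other genes of the list, 2 were late, Kcnu1 and Atp1a4, and Atp1a4 was over 2 floors from type A on.

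Among 9 further tektin and doublet microtubule genes, 3 were early and 1 late with onset in pachytene, 3 had their onset in spermatogonia and 2 stayed under 2 floors. Tekt4 was 8.19-fold higher in pachytene than in type B and 6.26-fold higher in round spermatids than in pachytene. Tekt3, already at 196.0 in type A, was 15.9-fold and 2.61-fold higher at these steps. Of 10 further mitochondrial sheath genes, 5 had their onset in spermatogonia, 3 were early with onset in pachytene and 2 were late. The late ones were Armc12 and Spata19, a mitochondrial protein gene of spermatids that was 21.3-fold higher in round spermatids than in pachytene.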

How the data were processed

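Total RNA of 4 germ cell types was hybridised after one-cycle target labelling, per the labels. The deposited intensity values are signals made by the authors with MAS5, per the submitters' processing notes (version not given in the sources used here), on arrays whose 2% trimmed means lay between 125.02 and 125.1. Each array was rescaled to the geometric mean of the 4 trimmed means of its design, signals under 0.4 of that mean were raised to it before taking log2. Ratios are within a design. Of 36701 probe sets without controls, 29131 had 1 symbol, and 29044 of these matched the RefSeq table of assembly GRCm38.p6 by gene identifier. Depth on an array is signal over background, and precision is limited by having few arrays. No test was run, since each cell type has 1 array per design. All members, the 3 nearest genes of each and up to 4 genes of a list at a step are named. Members and lists were chosen with earlier results of these data known. Alternatives covered the floor, scaling, choice of probe set and fold threshold. Computation used Python 3.11.15, numpy 2.4.6, pandas 2.3.3 and scipy 1.17.1.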

Additional observations from a re-analysis of the deposited data

How the results depend on the processing

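The early or late class of Akap4, Catsper2, Odf1, Ropn1l, Smcp and Tekt1 was the same under each alternative that measured them. All of these but Odf1 have a single probe set, so the alternatives on the choice of probe set could not change their class. For Odf1, the probe set 140509_at, early by the same rule, was used by no alternative. Odf2 became late at a 2-fold threshold and Tekt2 early at an 8-fold threshold. With the second probe set of a gene, Ropn1 and Tekt2 had no onset, 3 members were late, 3 in place of 5 were at least 4-fold higher in round spermatids than in pachytene, and the log2 ratios turned to -0.63 for Ropn1 (pachytene over type B) and -0.0848 for Tekt2 (round spermatids over pachytene). The 7 members at least 4-fold higher in pachytene than in type B became 4 with the floor doubled to 0.8 of the trimmed mean, 4 with the second probe set and 4 at an 8-fold threshold, and 9 with no floor; a higher floor lowers each bound by construction. Scaling to bacterial spike-in controls gave 8, and moved the median log2 ratio of all genes at this step to 0.35, against -0.28. The share of higher calls among all 4-fold calls there was 59.2%, or 80.7% under a common median and 86.4% under spike-in scaling. Without a floor, Tekt1 was higher in type B than in type A by 3.38 on the log2 scale, from 2 signals under the floor, and no other alternative gave a member at least 4-fold higher there. On U74Av2 only, 7 members could be measured. Signals near the floor limit every ratio against spermatogonia.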

Other observations

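Protein kinase A is held in the fibrous sheath by Akap4, and the genes of this signalling list had a median log2 ratio of -0.08 in pachytene over type B and 0.21 in round spermatids over pachytene. Of 15 genes for kinase subunits, cyclases and other anchoring proteins with a probe set, 12 had their onset in spermatogonia and 3 had none. No member had its onset there by its main probe set, but most genes did: of the 10702 genes with an onset, all but 1336 had it in spermatogonia. The genes of this list at least 4-fold higher in round spermatids than in pachytene were the type II regulatory subunit gene Prkar2a and the anchoring protein gene Akap1. Prkar2a read 139, 107, 101 and 861 in type A, type B, pachytene and round spermatids, and was 8.56-fold higher in round spermatids than in pachytene. Akap1 read 205, 205, 293 and 2467 and was 8.43-fold higher. Prkar2b, the other type II regulatory subunit gene, ran the opposite way, with 350, 190, 24.1 and 33.4. The catalytic subunit gene Prkacb was 4.45-fold lower in pachytene than in type B.

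Among 9 genes for transcription factors of spermatocytes and spermatids, 3 were early with onset in pachytene, 2 had their onset in spermatogonia, 1 was late and 3 had no onset. Rfx2, whose product binds the X-box, read 28.8, 44.7, 950.7 and 950.9 in the 4 cell types and so had reached its round spermatid signal in pachytene. Foxj1, a factor of motile cilia, read 85.3, 56.7, 53.6 and 952.3 and was 17.8-fold higher in round spermatids than in pachytene. Mybl1 was 4.29-fold higher in pachytene than in type B and 5.67-fold lower in round spermatids than in pachytene.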
